A study of Mus musculus with 6 samples.

Results

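Genes for 10 subunits of the transcription factor AP-1 (activator protein 1) were read in mouse hypothalamus: Fos, Fosb, Fosl1 and Fosl2 of the Fos type, Jun, Junb and Jund of the Jun type, Atf3, and the small Maf genes Maff and Mafk. They were taken by gene symbol, and all 10 were found among the 18228 genes of the deposited count table. Bulk hypothalamic RNA came from 3 aged animals at 22 months and 3 young animals at 12 weeks, chosen at random after a behavioural experiment on cognitive decline with age. All had been given sodium pentobarbital and killed by dislocation, with the head put on ice, and the labels name no strain, genotype, sex, litter or batch. Each library came from 1 mouse and held 17208291 to 18884403 counted reads.

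AP-1 is a family of dimers. Fos-type proteins bind DNA only with a partner, mostly of the Jun type, while Jun-type proteins can also pair with themselves. Many of these genes are immediate early genes, switched on within minutes of a stimulus by kinase signalling through factors already present in the cell, and in the hypothalamus Fos is widely used to map neurons that were recently active. Atf3 is known as a stress-induced member that can pair with Jun, and small Maf proteins, which lack a transactivation domain, pair with one another, with Fos or with the NRF2 and BACH factors.

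Of the 10 subunits, 7 were higher in aged hypothalamus at an adjusted p under 0.05 (edgeR's quasi-likelihood test, Benjamini-Hochberg adjustment over 14702 genes) and 0 were lower. Over all genes tested, 3.22% were called higher and 3.64% lower. Atf3, Fosl1, Maff, Fosl2 and Fosb showed the largest increases, from 3.25-fold for Fosb to 13.5-fold for Atf3, and Junb and Mafk rose by smaller amounts. Fos, Jun and Jund did not pass. Fosl1 met the count filter through the aged libraries alone, so its place in the count follows partly from the filter; without it, 6 of 9 subunits were called higher. The median log2 fold change was 1.24 over the 10 subunits and 0.78 without Fosl1, against -0.0035 over all genes tested. Every aged library lay above every young library for 8 of the 10 subunits, and for 7 of 9 without Fosl1, an arrangement seen in 15.5% of all genes tested.

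Limits of the comparison bear on every value below. The 4 Y-linked genes looked at had 3394 to 3617 reads per aged library, against 24 to 32 per young library, so sex, as read from these genes, and age cannot be told apart. Markers of several cell types also differed between the groups. For the counts at an unadjusted p below, 26.2% of all genes tested had an unadjusted edgeR p under 0.05. Of 9 astrocyte markers 3 fell in aged libraries, with a summed level of 2912 to 3910 CPM in aged and 4263 to 4488 CPM in young libraries. Of 9 endothelial markers 3 fell (summed 205 to 248 CPM in aged, 241 to 291 CPM in young), of 8 pericyte and smooth muscle markers 2 fell (154 to 189 CPM in aged, 221 to 256 CPM in young) and of 7 fibroblast markers 3 fell (52.6 to 60.3 CPM in aged, 73.3 to 83.2 CPM in young). None of the 10 neuronal markers and none of 5 red blood cell markers tested passed in edgeR (1 and 0 had an unadjusted p under 0.05; summed neuronal level 4555 to 4901 CPM in aged and 4735 to 5236 CPM in young). Neutrophil markers summed to 1.12 to 3.75 CPM in aged and 0.117 to 1.32 CPM in young libraries, with 6 of 8 at 0 reads in at least 1 library. Of 7 oligodendrocyte precursor markers 1 fell, 5 had an unadjusted p under 0.05 and 0 had a log2 fold change above 0, with a summed level of 333 to 408 CPM in aged and 465 to 535 CPM in young libraries. Of 9 microglial and 8 oligodendrocyte markers 1 each fell, and markers of ependyma, choroid plexus, perivascular macrophages and pituitary gave 0 calls in edgeR (0, 1, 0 and 0 had an unadjusted p under 0.05). Pituitary markers summed to 2.58 to 7.44 CPM in aged and 2.17 to 224 CPM in young libraries, the highest in young replicate 3. The part of these markers in the results was not tested, and in bulk tissue more cells of a type and more RNA per cell cannot be told apart. All 14 hypothalamic peptide genes looked for, such as Avp, were detected in every library. Among them Avp and Cartpt were higher (0.60 ± 0.06 and 0.32 ± 0.07) and Hcrt and Npvf lower in aged libraries (-0.82 ± 0.15 and -1.34 ± 0.32), and 11 of the 14 had an unadjusted p under 0.05; the part of these shifts in the results was not tested.

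Levels of different subunits were compared per length, as the deposited FPKM (reads scaled to gene length and library total). Jund was the most abundant subunit over the 6 libraries, followed by Fos, Junb, Jun, Fosl2, Fosb, Atf3, Maff, Mafk and Fosl1. In aged libraries Fos averaged 56.9 ± 16.7 FPKM and Jund 52.6 ± 9.44 FPKM; in young libraries Fos averaged 32.4 ± 6.52 FPKM and Jund 53.0 ± 1.95 FPKM (SD, n = 3 each). The ranges of Fos and Jund overlapped in aged mice, whereas all 3 young libraries had more Jund than Fos. Fosl2 stood at 10.2 to 21.7 FPKM in aged and 2.44 to 4.15 FPKM in young libraries, and Fosb at 9.76 to 16.5 FPKM in aged and 3.50 to 4.22 FPKM in young libraries, so these neighbours were within their spread of each other in both groups. Atf3 (3.78 to 7.47 FPKM) and Maff (2.68 to 7.24 FPKM) also overlapped in aged libraries, where both exceeded the mean of Mafk, 2.54 ± 0.192 FPKM. In young libraries Mafk was the higher of these, at 1.86 ± 0.201 FPKM, against 0.411 ± 0.0499 FPKM for Atf3 and 0.535 ± 0.0883 FPKM for Maff (SD, n = 3 each). The subunits with the largest fold increases were thus among the least abundant in young tissue, while the largest gains in level were those of Fos (24.4 FPKM, not passing the test), Junb (15.6 FPKM) and Fosl2 (12.9 FPKM).

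**Figure D1:**
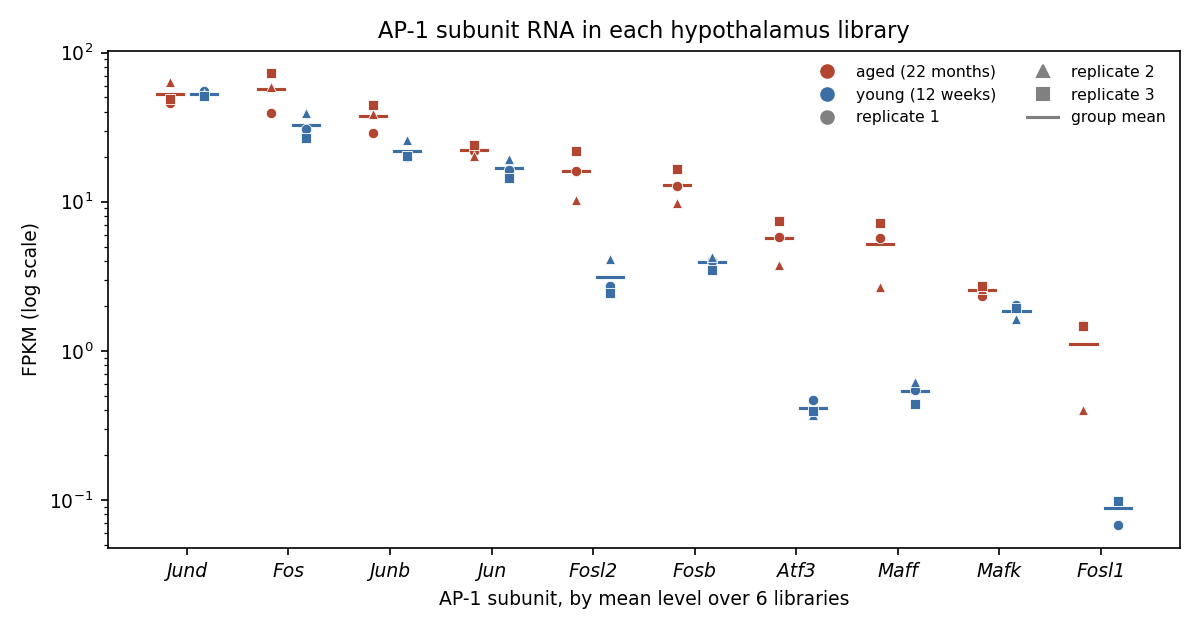
FPKM of each AP-1 subunit (log axis) in every library, aged in red to the left of young in blue, with a symbol per replicate and a bar at the group mean. Jund, at the left, has overlapping groups near 53 FPKM, while Atf3, Maff and Fosl1 have aged points far above their young points.

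Start-site windows are shown for Fos and for those subunits with a window that moved most, to set the sequence beside the response. They come from RefSeq on GRCm38.p6 and run from 250 bases before to 50 bases after an annotated start. At least 1 window was found for 9 of 10 subunits, and Maff had 3. Fosl1, among the subunits with the largest increases, had no window and is not shown. The count table was made on GRCm39, so these coordinates are not those of the counts, and which start was used in these samples is not known. Capitals mark matches on either strand to the cyclic AMP response element TGACGTCA or to its core TGACG, and to the TATA box TATAAA. The windows are Maff, second start, chr15:79347270-79347569, plus strand; Atf3, chr1:191183284-191183583, minus strand; Fosb, chr7:19309996-19310295, minus strand; Fosl2, chr5:32136222-32136521, plus strand; and Fos, chr12:85473640-85473939, plus strand.
Maff: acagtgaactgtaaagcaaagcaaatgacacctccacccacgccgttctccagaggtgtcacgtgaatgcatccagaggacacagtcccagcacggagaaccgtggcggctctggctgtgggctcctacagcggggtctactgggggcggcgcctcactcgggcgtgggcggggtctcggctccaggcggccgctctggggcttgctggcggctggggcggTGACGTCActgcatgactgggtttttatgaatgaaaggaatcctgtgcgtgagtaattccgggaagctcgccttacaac
Atf3: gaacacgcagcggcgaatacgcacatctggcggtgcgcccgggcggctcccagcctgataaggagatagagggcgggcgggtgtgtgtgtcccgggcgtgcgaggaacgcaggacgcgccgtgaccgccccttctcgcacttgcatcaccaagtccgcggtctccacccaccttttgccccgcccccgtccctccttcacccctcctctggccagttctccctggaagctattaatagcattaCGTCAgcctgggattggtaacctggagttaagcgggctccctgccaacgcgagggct
Fosb: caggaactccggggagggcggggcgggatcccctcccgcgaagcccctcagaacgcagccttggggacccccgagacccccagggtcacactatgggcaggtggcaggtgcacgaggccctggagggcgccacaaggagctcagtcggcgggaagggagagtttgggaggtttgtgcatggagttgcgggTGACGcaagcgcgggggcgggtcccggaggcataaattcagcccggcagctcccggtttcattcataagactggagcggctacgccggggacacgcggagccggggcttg
Fosl2: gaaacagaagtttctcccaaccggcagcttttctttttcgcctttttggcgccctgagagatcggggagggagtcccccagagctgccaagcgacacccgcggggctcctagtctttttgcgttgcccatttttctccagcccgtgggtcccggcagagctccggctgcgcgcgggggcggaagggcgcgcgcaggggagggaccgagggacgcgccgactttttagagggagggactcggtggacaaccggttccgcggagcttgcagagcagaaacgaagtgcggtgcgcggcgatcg
Fos: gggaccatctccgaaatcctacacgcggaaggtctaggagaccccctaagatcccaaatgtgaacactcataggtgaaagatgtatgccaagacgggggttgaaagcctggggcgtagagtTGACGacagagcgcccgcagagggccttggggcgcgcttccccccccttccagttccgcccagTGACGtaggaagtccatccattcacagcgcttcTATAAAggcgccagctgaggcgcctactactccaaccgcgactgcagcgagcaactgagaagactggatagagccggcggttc

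The full element TGACGTCA stood in the second Maff window, starting 29 bases before the annotated start, and in no other of the 11 windows of these genes; 1.79% of all 32841 windows held it. The core TGACG, which lies inside the full element and was added after the windows were seen, matched in 7 of the 11 windows. These belonged to 6 of the 9 genes with a window (Atf3, Fos, Fosb, Junb, Maff and Mafk), and 20.8% of all windows held the core. G or C made up 58.7% to 68.3% of the windows with the core and 46.7% to 64.7% of those without. The median over all windows was 52.7%, and the share of 20.8% was not matched for base content. In Fos it began 129 and 66 bases before the start, in Fosb 60 bases and, on the other strand, in Atf3 7 bases before it. Fosl2, Jun and Jund had no TGACG match within these 300 bases. The TATA box began 33 bases before the Fos start and at the Junb start, and 13.6% of all windows held one. An AP-1 site TGANTCA, held by 7.81% of all windows, the serum response element (1.63%) and the heat shock element (0.603%) had no match in any of the 11 windows on either strand. Each was searched in a single form of letters, so an AP-1 site of other letters or spacing would have been missed. Elements further than 250 bases before the start lay outside the windows and were not looked for. The glucocorticoid response element, held by 0.475% of all windows, matched in Jund and in no other of the 11 windows. These are matches of letters and were not tested against expression.

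Among the Fos-type genes, Fosl2 and Fosb rose clearly. Fosl2, which encodes the Fos relative Fra-2, had 114, 71.0 and 153 CPM in aged libraries 1 to 3, against 19.6, 29.9 and 17.2 CPM in young libraries 1 to 3 (CPM, reads scaled to the TMM-adjusted library total). All aged values were more than 2-fold above the highest young value. The log2 fold change was 2.34 ± 0.28 (SE; edgeR adjusted p = 0.00396). Fosb, whose truncated product is known to accumulate in neurons with repeated stimulation, had 48.3, 36.1 and 61.7 CPM in aged against 15.4, 16.3 and 13.2 CPM in young libraries, again with no overlap. Its log2 fold change was 1.70 ± 0.18 (edgeR adjusted p = 0.00205). The table gives gene totals, so the truncated and full forms of Fosb were not separated.

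Fos itself had 82.6, 122 and 152 CPM in aged and 66.0, 85.1 and 56.5 CPM in young libraries. Aged replicate 1 fell below young replicate 2, so the groups overlapped. The log2 fold change was 0.78 ± 0.21 and the edgeR adjusted p of 0.0517 missed the threshold; its 95% interval, 0.32 to 1.24, covered increases of 1.24-fold to 2.36-fold. Without aged replicate 1 the edgeR adjusted p was 0.0270, and without young replicate 2 it was 0.0472, while without the other 4 libraries in turn it was 0.0742 to 0.168 and with robust estimation 0.129. Fosl1, which encodes Fra-1, was nearly undetected in young mice, with 45, 13 and 43 reads in aged libraries against 2, 3 and 3 reads in young libraries. Summed over libraries, the ratio per counted read was 12.4 with a 95% exact interval of 6.07 to 29.5 that covers counting error only. The fitted log2 fold change was 3.56 ± 0.63 (edgeR adjusted p = 0.0158), and the call was lost without aged replicate 1 or 3 or young replicate 1 or 3 (edgeR adjusted p of 0.0551, 0.0635, 0.0607 and 0.0528).

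Of the Jun-type genes, Junb passed and Jun and Jund did not. Junb, a Jun relative induced with Fos in many settings, had 53.1, 70.2 and 81.9 CPM in aged and 37.0, 48.3 and 37.3 CPM in young libraries, without overlap. It rose by 0.74 ± 0.16 on the log2 scale (edgeR adjusted p = 0.0255); the call was lost without aged replicate 3 and without young replicate 1 or 3 (edgeR adjusted p of 0.0873, 0.0831 and 0.0807). Jun had 69.7, 63.5 and 76.4 CPM in aged and 52.7, 62.7 and 46.1 CPM in young libraries. The lowest aged value lay just above the highest young one, and the log2 fold change of 0.38 ± 0.11 did not pass (edgeR adjusted p = 0.0719). Without aged replicate 2 or young replicate 2 it did (edgeR adjusted p of 0.0429 and 0.0339), as it did in DESeq2 (adjusted p = 0.0181). Without the other 4 libraries in turn it did not (edgeR adjusted p of 0.162 to 0.222).

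Jund, a Jun relative expressed at a steady level in most tissues, had 132, 179 and 139 CPM in aged against 161, 155 and 147 CPM in young libraries, with the young values inside the aged range. Its log2 fold change was -0.04 ± 0.11 (edgeR adjusted p = 0.841), and the 95% interval, from 0.824-fold to 1.14-fold, leaves out changes of the size seen in Junb's estimate, 1.67-fold. The sign of the Jund difference turned without aged replicate 1 (0.05) and without aged replicate 3 (0.02).

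Atf3, the stress-induced member, had the largest fold change of the 10. It stood at 11.5, 7.32 and 14.7 CPM in aged libraries and at 0.938, 0.747 and 0.779 CPM in young libraries, which were 205, 141 and 254 reads against 16, 13 and 14 reads. The log2 fold change was 3.75 ± 0.30 (edgeR adjusted p = 0.000503), the eighth largest increase of the 14702 genes tested. Maff, a small Maf known to be induced by inflammatory and stress signals, had 18.8, 8.62 and 23.6 CPM in aged against 1.82, 2.07 and 1.45 CPM in young libraries. Every aged library was over 4-fold above every young library, with a log2 fold change of 3.25 ± 0.37 (edgeR adjusted p = 0.00345). Mafk, its close relative, had 21.8, 23.7 and 25.2 CPM in aged against 19.2, 15.6 and 18.1 CPM in young libraries and rose by only 0.42 ± 0.10 (edgeR adjusted p = 0.0376). That call was lost without any single library other than aged replicate 2 (edgeR adjusted p of 0.0633 to 0.144) and on log2(FPKM + 1) and log2(FPKM + 0.1) with limma-trend (adjusted p of 0.0620 and 0.0671).

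**Figure D2:**
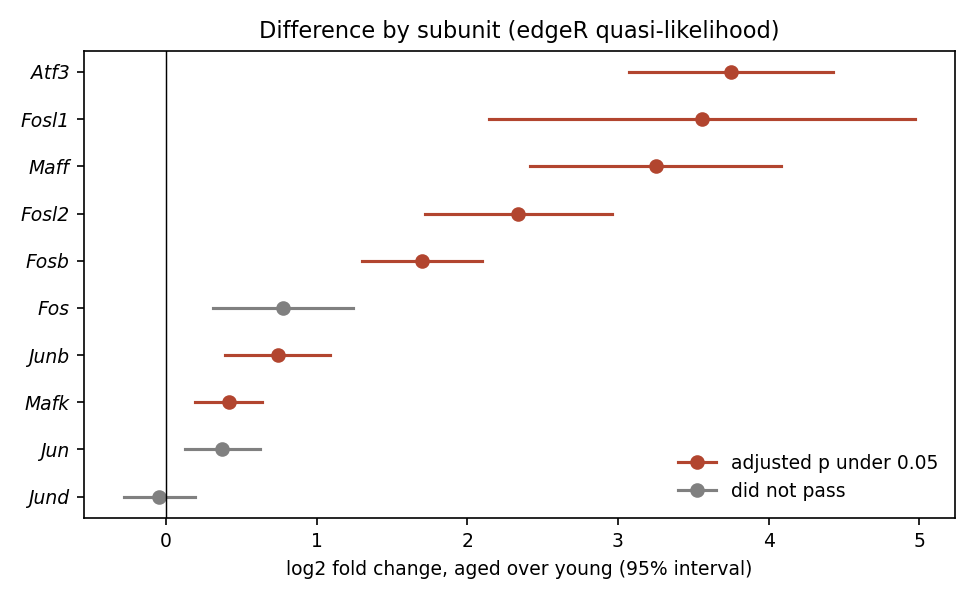
Log2 fold change of aged over young for each subunit with its 95% interval from edgeR's quasi-likelihood fit, red where the adjusted p was under 0.05 and grey where it was not. Atf3 leads at 3.75, the Fosl1 interval is the widest, and the Jund interval spans 0.

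The count of 7 changed when single libraries were left out. It was 4 without aged replicate 3, without young replicate 1 and without young replicate 3, when the calls over all genes also fell, to 1.01%, 1.77% and 2.67% in either direction, against 6.86% with all 6 libraries. Atf3, Maff, Fosl2 and Fosb passed in each of these, and in each of the 21 alternatives run.

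The subunits did not order the aged mice the same way. Aged replicate 2 had the lowest aged value for 6 subunits (Fosb, Fosl1, Fosl2, Jun, Atf3 and Maff) and aged replicate 1 for the other 4 (Fos, Junb, Jund and Mafk), while aged replicate 3 had the highest for 8. Relative to the young mean, Maff stood at 10.6-fold, 4.85-fold and 13.3-fold in aged libraries 1 to 3, and Fosl2 at 5.13-fold, 3.19-fold and 6.86-fold. Fos stood at 1.19-fold, 1.76-fold and 2.19-fold, and Junb stood at 1.30-fold and 1.72-fold in aged libraries 1 and 2 and was highest in aged library 3. Fos and Junb thus shared an order that placed aged replicate 1 lowest, and Fosb, Fosl2, Atf3 and Maff an order that placed aged replicate 2 lowest. Heat shock genes, also low in aged replicate 2, summed to 4845, 4122 and 5270 CPM in aged libraries 1 to 3. In young libraries they summed to 3658 to 3922 CPM. Astrocyte markers, at 3828, 2912 and 3910 CPM in aged libraries 1 to 3, were also lowest in aged replicate 2. So were sums of oligodendrocyte precursor and choroid plexus markers. Sums of neuronal, microglial, oligodendrocyte, endothelial, pericyte and smooth muscle, fibroblast, ependymal and perivascular macrophage markers were highest there. The part of heat shock genes and of cell types in the order was not tested. Among young mice, replicate 2 had the highest level of Fos, Fosb, Fosl2, Jun, Junb and Maff.

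**Figure D3:**
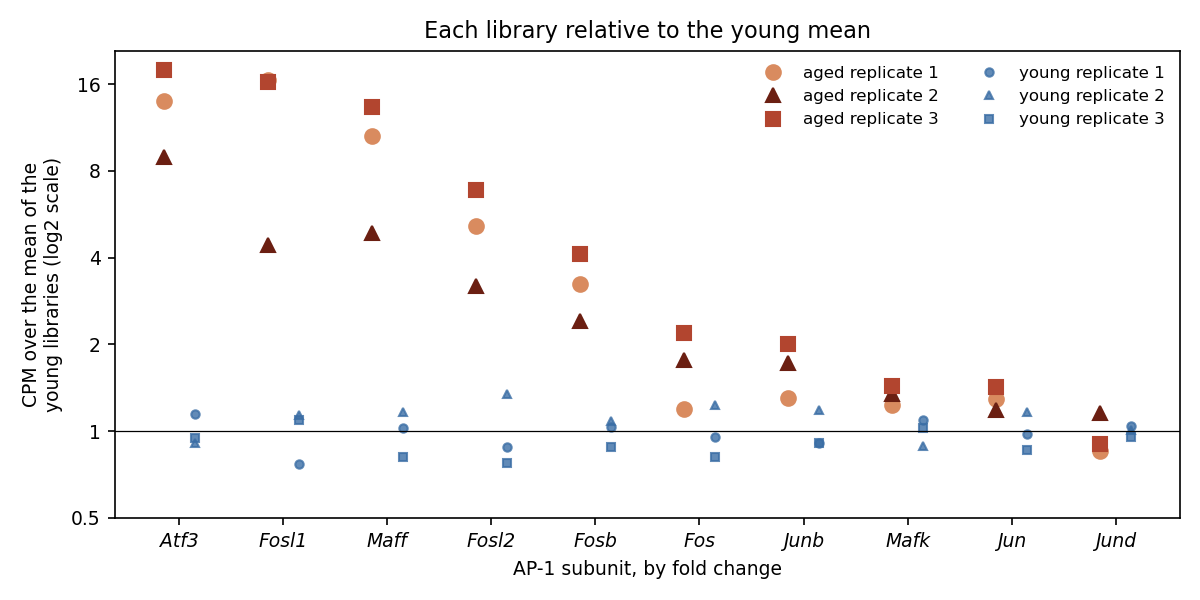
CPM of each subunit in every library divided by the mean of the young libraries (log2 axis), aged symbols to the left of young ones, subunits ordered by fold change. The triangle of aged replicate 2 lies lowest of the aged symbols for Atf3, Fosl1, Maff, Fosl2, Fosb and Jun, and the circle of aged replicate 1 lowest for Fos, Junb, Mafk and Jund.

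Genes with the most similar pattern over the 6 libraries were found by the root mean square difference in centred log2 CPM. The difference between age groups is part of this measure, so whether a nearest gene was called follows partly from how it was picked. The nearest gene to Fos was Junb, and the nearest to Junb was Fos, at 0.11. Nfkbid (0.17) and Ankef1 (0.18) followed for Fos, and H2-K1 and Egr1 (0.14 each) for Junb. Ankef1 and H2-K1 were called higher (edgeR adjusted p of 0.0332 and 0.00468), and Nfkbid did not pass (edgeR adjusted p = 0.138). Maff was the nearest gene to Atf3 (0.33), and Hspa1a, an inducible Hsp70 chaperone, was the nearest to both Maff (0.29) and Fosl1 (0.28). Reads of Hspa1a and its near-identical copy Hspa1b may have been divided or dropped in counting, and values of both are uncertain to that extent. Map3k6, a stress-activated kinase, was nearest to Fosl2 (0.19), followed by Hspb1 (0.26) and Ccn1 (0.30). Csrnp1 and Rrad were nearest to Fosb (0.17 each), then Klf4 (0.17). Jun, Jund and Mafk were nearest to Serhl (0.06), Tmem97 (0.02) and Mapkapk3 (0.03).

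The make-up of the AP-1 RNA pool differed with these levels. Summed over the 10 subunits, FPKM came to 180, 211 and 247 in aged libraries and 132, 149 and 122 in young libraries. Fos-type genes gave 38.7%, 37.6% and 45.4% of that sum in aged and 28.5%, 32.3% and 27.0% in young libraries, while Jun-type genes gave 53.6%, 58.2% and 47.6% in aged and 69.2%, 65.9% and 70.7% in young libraries. The ratio of Fos-type to Jun-type FPKM was therefore 0.721, 0.646 and 0.954 in aged against 0.413, 0.491 and 0.383 in young libraries, with no overlap. Within the Fos type, Fos itself made up 56.3% to 74.3% of FPKM in aged and 81.6% to 82.4% in young libraries. Fosl2 made up 12.9% to 23.2% in aged and 7.24% to 8.63% in young libraries. Of the small Maf pair, Maff was 71.1%, 50.9% and 72.8% in aged libraries and 21.3%, 27.4% and 18.6% in young libraries. Per length, the more abundant of the pair was thus Maff in aged and Mafk in young mice. In reads, Mafk was above Maff in every aged library (389, 457 and 437 against 335, 166 and 409). The order in aged mice therefore rests on the gene lengths behind FPKM, 9.385 kb for Mafk and 3.283 kb for Maff. Mafg, a small Maf gene outside the 10 subunits, was above both, at 18.0 to 20.4 FPKM in aged libraries. In young libraries it stood at 15.6 to 18.1 FPKM, and its log2 fold change of 0.16 ± 0.08 did not pass (edgeR adjusted p = 0.208).

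Ratios of related subunits within each library were compared for 5 pairs with a two-sided exact permutation test, whose smallest p with 3 against 3 libraries is 0.1. Fosl2 over Fos was 0.412, 0.174 and 0.300 in aged against 0.0883, 0.105 and 0.0910 in young libraries, and Maff over Mafk 2.46, 1.04 and 2.68 in aged against 0.270, 0.378 and 0.229 in young libraries. Fosb over Fos was 0.326, 0.166 and 0.227 in aged against 0.130, 0.107 and 0.130 in young libraries. The groups did not overlap in these 3 ratios, each of which reached that smallest exact p of 0.1 (0.167 after Benjamini-Hochberg adjustment over 5 pairs). Junb over Jun and Jund over Jun overlapped between the groups (exact permutation p of 0.3 and 0.2, adjusted 0.3 and 0.25).

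**Figure D4:**
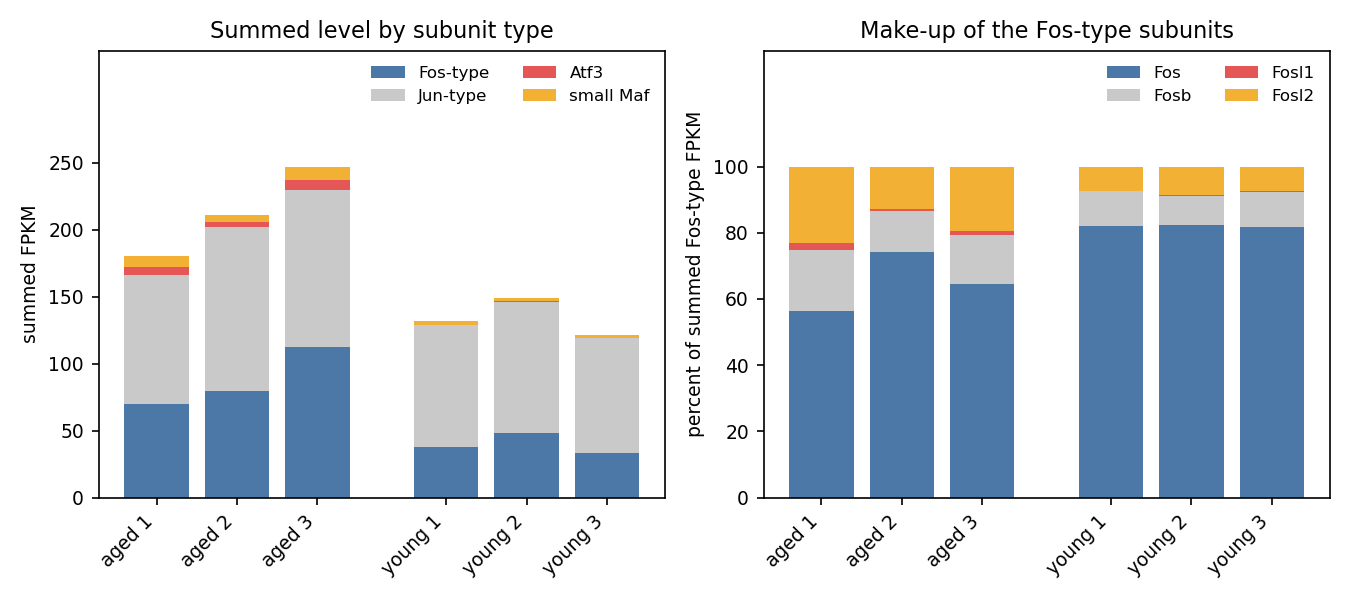
Left, summed FPKM of Fos-type, Jun-type, Atf3 and small Maf subunits in each library, aged libraries left of young ones; right, the percentage of summed Fos-type FPKM that each Fos-type gene makes up. Aged sums are 180 to 247 FPKM and young sums 122 to 149 FPKM, and Fos takes a smaller part of the aged bars.

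Other genes of the pathway were read from lists, whose calls are described beside the 3.22% higher and 3.64% lower of all genes. Of 15 further AP-1 family members and dimer partners, 11 were tested. Of these, 5 had an unadjusted edgeR p under 0.05, against 26.2% of all genes tested. In edgeR, 0 were called higher and 1 lower. That gene was Bach2, a repressor that pairs with small Maf proteins, with every aged library below every young one and a log2 fold change of -0.57 ± 0.15 (edgeR adjusted p = 0.0495). Leaving out any single library ended that call, and without aged replicate 2 there were 2 genes of the list called higher. Nfe2l2, which encodes NRF2, did not pass (0.39 ± 0.12, edgeR adjusted p = 0.0862), nor did Atf7 (-0.29 ± 0.08) or Nfe2l3 (-0.42 ± 0.15). The median log2 fold change of this list was -0.02.

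Among 26 kinases and factors upstream of AP-1, 2 were higher and 1 lower, with a median of -0.01. Map3k6 had 10.6, 6.39 and 10.3 CPM in aged against 1.82, 2.07 and 1.39 CPM in young libraries (2.37 ± 0.24, edgeR adjusted p = 0.00188). Crem, which encodes cyclic AMP-responsive activators and repressors, rose by 0.89 ± 0.17, and Elk3, a factor that acts with the serum response factor, fell by 0.56 on the log2 scale. Elk4, its relative, had a log2 fold change of -0.52 ± 0.14 and did not pass (edgeR adjusted p = 0.0516). Without single libraries, 1 to 4 of these genes were called higher and 0 to 3 lower, the most without aged replicate 2.

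Of 22 tested genes known as AP-1 targets, 7 were higher and 0 lower, with a median of 0.26; 3 were called without aged replicate 1 and without aged replicate 3, and 4 without young replicate 1 (with 1 lower) and without young replicate 2. Ccl2, a chemokine, had 2.58, 2.13 and 4.96 CPM in aged against 0.469, 0.230 and 0.278 CPM in young libraries (3.28 ± 0.45, edgeR adjusted p = 0.00600). With 8, 4 and 5 reads in young libraries 1 to 3, Ccl2 met the count filter through the aged libraries alone. Its place among the 7 thus follows partly from the filter. Plaur, the urokinase receptor, had 5.66, 2.28 and 7.04 CPM in aged against 0.352, 0.862 and 0.556 CPM in young libraries (3.06 ± 0.47, edgeR adjusted p = 0.00928). With 6, 15 and 10 reads in young libraries 1 to 3, Plaur too could not have met the count filter without the aged libraries. The place of Plaur among the 7 also follows partly from the filter. The intermediate filament gene Vim rose by 0.55 ± 0.08 and the opioid precursor Pdyn by 0.45 ± 0.08. Penk and Nts were also among the 7.

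Of 11 tested genes known to respond to NRF2 with small Maf partners, Srxn1, which restores oxidised peroxiredoxins, rose by 0.56 ± 0.11 (edgeR adjusted p = 0.0208) and 10 did not pass, with a median of 0.15. An unadjusted edgeR p under 0.05 was reached by 6 of the 11, Slc7a11 among them with a decrease, against 26.2% of all genes tested. In 6 of the 11 every aged library lay above every young one, against 15.5% of all genes tested. With the gene length trend removed the list median was 0.04. Srxn1 had 155, 129 and 181 CPM in aged and 106, 110 and 99.6 CPM in young libraries. The Srxn1 call was lost without aged replicate 1 or 3 or young replicate 1 or 3. Slc7a11, the cystine transporter, did not pass (-0.53 ± 0.19, edgeR adjusted p = 0.115). Of 15 genes of the integrated stress response, the pathway through Atf4 that also induces Atf3, 3 were higher and 12 did not pass, with a median of 0.08. Cebpb rose by 1.42 ± 0.16, Ppp1r15a by 0.63 ± 0.12 and Atf4 by 0.35 ± 0.08 (edgeR adjusted p of 0.00386, 0.0207 and 0.0338), and Ddit3 did not pass (0.38 ± 0.10, edgeR adjusted p = 0.0515). Just 1 gene of this list was called without aged replicate 1, aged replicate 3, young replicate 1 or young replicate 3, and 5 were called without aged replicate 2.

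Immediate early genes outside AP-1 and heat shock genes included several called higher and none called lower. Of 27 tested early genes, 11 were higher and 0 lower, with a median of 0.56, and of 14 heat shock genes 8 were higher and 0 lower, with a median of 0.41. Nr4a3 had 74.7, 51.9 and 95.5 CPM in aged against 5.80, 18.4 and 9.29 CPM in young libraries, and Dnajb1, an Hsp40 co-chaperone, had 177, 124 and 202 CPM in aged against 66.8, 86.6 and 65.4 CPM in young libraries. Among aged mice both were lowest in replicate 2, as Fosl2, Atf3 and Maff were. Among young mice both were highest in replicate 2, as Fosl2 and Maff were, whereas Atf3 was lowest there. Klf2, another early gene called higher, was also lowest in aged replicate 2 but was highest in young replicate 1. Egr1, the third nearest gene to Junb, rose by 0.50 ± 0.13 (edgeR adjusted p = 0.0465). Without single libraries 7 to 14 early genes and 4 to 11 heat shock genes were called.

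**Figure D5:**
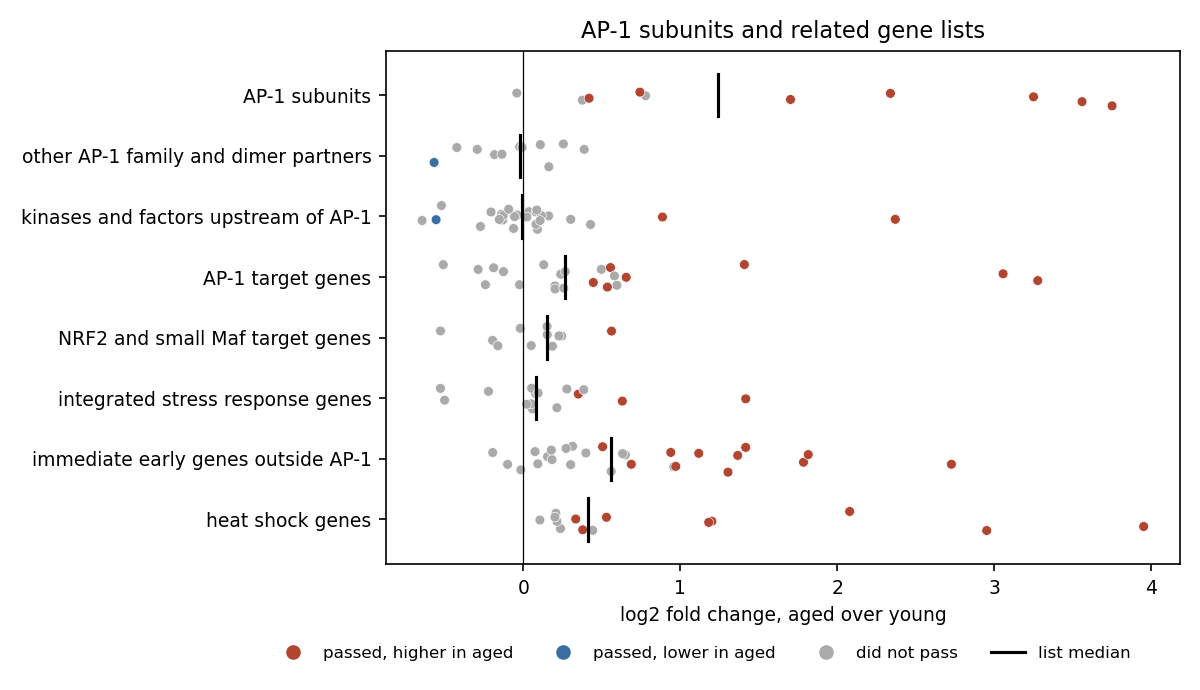
Log2 fold change of aged over young for each tested gene of the AP-1 subunits and 7 related lists, coloured by whether it passed and in which direction, with a bar at the list median. The subunits spread from -0.04 (Jund) to 3.75 (Atf3), while the medians of the kinase and dimer partner lists lie near 0, with Map3k6 and Crem called higher and Bach2 and Elk3 called lower.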

How the data were processed

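Deposited gene counts are whole numbers and were not normalized. Deposited FPKM equals these counts over 1 gene length and the library total for all 18228 genes (relative tolerance 1e-06). TruSeq Stranded mRNA libraries were made, per the labels' protocols. Per the submitters' processing notes, Trimmomatic, HISAT2, Cufflinks, HTSeq and DESeq were used with GRCm39. The annotation, the strand setting and the handling of multi-matching reads were not given in the sources used here, so reads of overlapping antisense genes may be mixed. edgeR 4.0.16 (R 4.3.3) was fitted to 14702 genes kept by filterByExpr (minimum count 10, minimum total 15) with TMM scaling, aged against young, no covariate, threshold 0.05. Libraries were not copies of each other (chi-square per degree of freedom 4.04 to 12.1 within groups). Alternatives used DESeq2 1.42.0, limma 3.58.1, other scalings, filters and thresholds, a replicate block, gene length correction and leaving out each library. The members, lists and tests were chosen with earlier results of these data known. Genes named were taken from the 10 members, up to 4 genes per list with the smallest p, and the 3 nearest genes to each member (mean log2 CPM at least 1, prior count 2). Some of the nearest genes were not named. Penk and Nts were named outside this rule after their values were seen. The motifs TGACG and TATAAA were added after the windows were seen.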

Additional observations from a re-analysis of the deposited data

How the results depend on the processing

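Atf3, Maff, Fosl2 and Fosb kept their direction and their call in all 21 alternatives; Mafk lost its call in 8 of 21, Fosl1 in 5 of 20 and Junb in 4 of 21, while Fos gained it in 7 and Jun in 5. Jund turned sign without aged replicate 1 (0.0505) and without aged replicate 3 (0.0173), and was -0.179 without aged replicate 2. At an adjusted p under 0.01, 4 subunits were called higher, with 90 genes higher and 54 lower in the whole table, and at 0.10 these were 9, 1017 and 1170. Without single libraries, 4 to 8 subunits were called higher, and 95 to 901 genes higher and 55 to 732 lower in the whole table, against 7, 474 and 535 with all libraries; the cause was not tested. With library totals as the only scaling, 9 subunits were called, and of all genes 627 were higher and 446 lower. Limma-trend gave 293 lower genes on log2(FPKM + 1) and 303 on log2(FPKM + 0.1), and removing the gene length trend gave 346, with 7 subunits still called. At a minimum count of 50, Fosl1 was not tested. The labels do not say whether the replicate numbers pair the mice. Correlations of deviations between like numbers were 0.10, 0.04 and -0.14, and with 3 libraries per group these cannot decide it. With the numbers as a block, 8 subunits were called higher, and 523 genes higher and 667 lower. No subunit was called lower in any alternative run. With TMM-normalised CPM per kilobase in place of FPKM, all 10 subunits kept their rank. Depth limits Fosl1 most, with 2 to 3 reads per young library.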
